A study of Homo sapiens with 12 samples.

Results

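The comparison described here sets 2 clones of one human cell line, mCherry_4 and mCherry_3, against each other. Both were grown from hTERT RPE-1, a retinal pigment epithelial line immortalised with telomerase, and both overexpressed the red fluorescent protein mCherry with no fused partner. They were chosen by the clone name in the sample titles, which gives 3 libraries of mCherry_4 and 3 of mCherry_3, 6 of the 12 libraries of the series. The other 6 came from LmnB1_6 and LmnB1_16, lines that overexpressed mCherry joined to lamin B1, one of the filaments under the inner nuclear membrane. Their levels are given only where a value needs a reference. They also entered the filter on low counts, the scaling and the shared estimate of the spread behind every p-value. With the 6 mCherry libraries alone, 14686 genes were tested and 6021 were called, against 15388 and 5752 in the main fit. All 4 lines were kept in medium with hygromycin B and received doxycycline at 0.05 ug/mL for 24 hours. Each clone descends from 1 founder, so its 3 libraries, described as biological replicates, show how far the cultures of that clone vary and not how far clones vary in general. The question the comparison answers is how far 2 lines with the same control construct differ in their messenger RNA.

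As background, a clonal line keeps the state of the cell it grew from. Promoter methylation, the set of chromosomes and the rate of division can all be passed on to its descendants. RPE-1 cells are widely used to study mitosis and the nucleus because they are not derived from a tumour.

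Total estimated counts, in units of 1e+06, were 25.1 to 26.2 in the mCherry_3 libraries and 23, 25.3 and 24.3 in the mCherry_4 libraries. Mitochondrial transcripts took 2.06% to 2.69% of the counts. The 10 most abundant genes took 4.57% to 4.90% in mCherry_3 and 6.14% to 6.47% in mCherry_4. Libraries of 1 clone differed by more than sampling noise (chi-square per degree of freedom at least 4.14), so none was a copy of another. The first principal component of the 6 libraries held 63.1% of the variance and separated the clones. Levels below are in CPM, counts scaled to a common library total, after TMM scaling, with means ± SD over 3 libraries. Where 2 sets of values are joined by "against" or "to", mCherry_3 comes first. LMNB1, the lamin B1 gene, was at 77.2, 91.2 and 86.6 CPM in mCherry_3 and 160.0, 169 and 155 in mCherry_4, far under the means of 3976 and 3374 in the LmnB1 clones. Counts per gene do not separate the fusion from the native gene in those clones. The levels fit the label of all 6 libraries as lacking the fusion, and do not tell which mCherry clone a library came from. The transcript of mCherry itself was not analysed here.

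Of 15388 genes tested, 5752 (37.4%) differed between the mCherry clones at an edgeR adjusted p under 0.05, 3067 of them (19.9%) higher and 2685 (17.4%) lower in mCherry_4. Among the 12774 protein-coding genes, the background for the lists that follow, 42.5% were called, 22.6% higher and 19.9% lower. Most were small differences, and 3580 were under 1.5-fold. A change of at least 2-fold was called for 1066 genes (6.93%), 435 higher and 631 lower in mCherry_4, and of at least 8-fold for 210. For 7747 genes (50.3%) the 3 libraries of one clone did not overlap those of the other, and so for 7112 of the protein-coding genes (55.7%). These shares are the background wherever libraries are said below not to overlap. Genes named for a small adjusted p or a large fold are chosen in a way that favours such separation. On deposited TPM, the length-corrected share of each transcript, tested with limma, the median of all genes was -0.11 in log2 and the calls were 1411 higher and 3279 lower, so the share that was higher fell from 53.3% to 30.1%. By mean CPM, which is not corrected for transcript length, of the 3193 protein-coding genes in the top quartile 34.9% were called higher in mCherry_4 and 15.9% lower, and of the 3194 in the bottom quartile 12.99% and 21.7%. For reference, 5289 genes (34.4%) were called between LmnB1_16 and LmnB1_6 and 1627 (10.6%) at 2-fold or more. Whether those numbers differ from the mCherry pair was not tested.

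**Figure D1:**
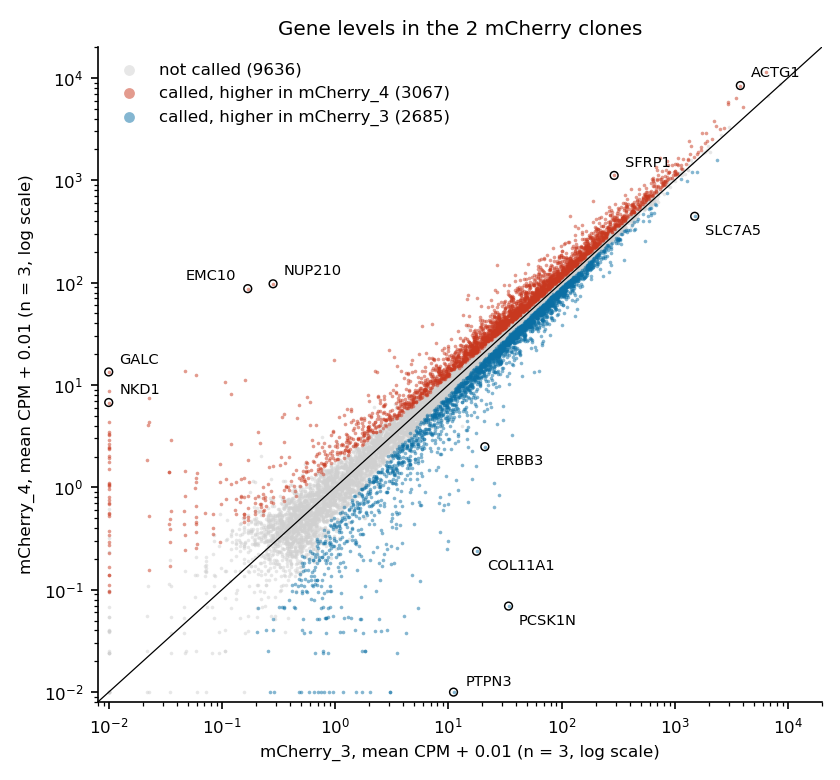
Mean level of each of the 15388 tested genes in mCherry_3 (x axis) and mCherry_4 (y axis), in CPM plus 0.01 on log scales, with genes called by edgeR coloured and the diagonal marking equal levels. Circled genes are described in the text, and GALC, NKD1 and PTPN3 lie on the edge because 1 clone had no counts.

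Some genes were nearly off in one clone and plainly expressed in the other. By the rule of under 0.5 CPM in all 3 libraries of one clone and at least 5 CPM in all 3 of the other, there were 18 such genes (0.117% of those tested). In 11 of them, on 9 chromosomes, mCherry_4 was the expressing clone, and in 7, on 7 chromosomes, mCherry_3 was. The number was 9 with silence set under 0.2 CPM, 9 with expression set from 10 CPM and 10 with the same limits on deposited TPM.

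NUP210 (ENSG00000132182.12, chromosome 3, 13316235 to 13420309, GRCh38) encodes a membrane glycoprotein of the nuclear pore. Its levels were 0.304, 0.107 and 0.407 CPM in mCherry_3 and 100.1, 98.2 and 93.6 in mCherry_4 (a log2 difference of 8.46 with an SE of 0.23, adjusted p = 6.52e-12 by edgeR). LmnB1_6 and LmnB1_16 were also low, at 0.521 and 0, so mCherry_4 was the expressing clone among the 4. EMC10 (ENSG00000161671.17, chromosome 19, 50476400 to 50490870), a subunit of the complex that inserts membrane proteins into the endoplasmic reticulum, was at 0.0761, 0.179 and 0.222 CPM in mCherry_3 and 87.8, 82.97 and 90.9 in mCherry_4 (a log2 difference of 9.04 with an SE of 0.18, adjusted p = 1.27e-14 by edgeR). Here the lamin B1 clones were split, with 94.1 in LmnB1_6 and 0.154 in LmnB1_16. The promoter windows of both genes, 250 bases before to 50 after the start in the RefSeq annotation of GRCh38.p14, are shown because transcripts of both genes were near 0 in some clones and plentiful in others. Capitals mark CpG, the dinucleotide that carries DNA methylation. NUP210 (chr3:13420273-13420572, minus strand) had 42 CpG with an observed to expected ratio of 0.847, and EMC10 (chr19:50476257-50476556, plus strand) had 29 and 0.828, beside a median ratio of 0.842 over the windows of 10322 tested protein-coding genes.
NUP210: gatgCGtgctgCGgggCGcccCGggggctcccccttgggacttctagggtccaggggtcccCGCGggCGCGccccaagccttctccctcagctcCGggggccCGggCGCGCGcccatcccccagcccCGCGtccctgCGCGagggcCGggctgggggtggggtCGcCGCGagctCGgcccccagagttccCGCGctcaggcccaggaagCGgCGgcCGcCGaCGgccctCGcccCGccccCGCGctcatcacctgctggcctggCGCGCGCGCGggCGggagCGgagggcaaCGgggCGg
EMC10: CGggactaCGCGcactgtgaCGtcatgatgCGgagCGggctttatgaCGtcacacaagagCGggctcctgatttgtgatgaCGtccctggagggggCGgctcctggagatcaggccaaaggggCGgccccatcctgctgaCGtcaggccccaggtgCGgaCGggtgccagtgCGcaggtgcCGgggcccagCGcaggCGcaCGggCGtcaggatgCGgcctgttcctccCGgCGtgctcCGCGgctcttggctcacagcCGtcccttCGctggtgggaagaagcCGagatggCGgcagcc
The ratios of both windows lay close to that median. Of the 16 protein-coding genes of the rule, 11 had a window, with ratios from 0.17 in GALC to 0.986 in PTPN3. Methylation was not analysed here.

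GALC, SLC2A10 and NKD1 had 0 counts in all mCherry_3 libraries. GALC (ENSG00000054983.17, chromosome 14, 87837820 to 87993665), the lysosomal enzyme that breaks down galactosylceramide, was at 14.1, 12.2 and 13.8 CPM in mCherry_4, at least 362-fold higher than the 3 counts that a count of 0 allows over the mCherry_3 libraries. It had 0 counts in both lamin B1 clones too. SLC2A10, a facilitative glucose transporter gene, was at 9.52, 8.06 and 8.69 CPM (at least 237-fold higher). NKD1, which encodes a feedback inhibitor of Wnt signalling, was at 7.49, 6.39 and 6.31 CPM in mCherry_4 (at least 182-fold higher), 372 in LmnB1_6 and 0.0162 in LmnB1_16. TNFRSF21, the death receptor 6 gene, went from 0.03804, 0.0358 and 0.07401 to 12.1, 12.7 and 12.9 CPM, and ARHGEF6, an exchange factor for Rac and Cdc42, from 0.152, 0.0717 and 0.222 to 10.8, 9.98 and 12.7. AS3MT, an arsenic methyltransferase gene, rose to 10.8 ± 0.902 CPM, and LINC01224, a noncoding RNA gene, to 8.08 ± 0.809. FNDC10 had 3 counts in mCherry_3 and 13.5 ± 1.63 CPM in mCherry_4, a ratio of 367 (95% counting interval 125 to 1783). ZNF542P, a transcribed pseudogene, had 1 count and 7.48 ± 1.24 CPM, a ratio of 606 (95% counting interval 108 to 23971). The reads of ZNF542P and NKD1 cannot be told apart from those of tested genes on the opposite strand, since no source used here gives the strand of the libraries.

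In the other direction PTPN3 (ENSG00000070159.14, chromosome 9, 109375466 to 109498313), a tyrosine phosphatase gene, was at 11.6, 10.9 and 10.8 CPM in mCherry_3 and had 0 counts in mCherry_4 and in both lamin B1 clones. It was at least 258-fold higher in mCherry_3. PCSK1N, which encodes the proprotein convertase inhibitor proSAAS, was at 36.6, 33.3 and 32.2 CPM in mCherry_3 against 0.135, 0 and 0.0424 in mCherry_4 (a log2 difference of -9.09 with an SE of 0.33, adjusted p = 1.52e-11 by edgeR). COL11A1, a fibrillar collagen chain gene, was at 22.7, 16.3 and 14.2 against 0.135, 0.2504 and 0.297. This gene was also low in LmnB1_6 (0.0714) and LmnB1_16 (0.575). The remaining 4 were CDCP1, a transmembrane glycoprotein gene (9.63 to 0.241 CPM), the hydrolase gene CMBL (9.88 to 0.287), MAP6, which stabilises microtubules (8.51 to 0.354), and HOXB4 (5.58 to 0.113). HOXB4 overlaps the antisense gene HOXB-AS3. The lamin B1 clones matched neither mCherry clone as a whole. Both were silent for GALC and PTPN3, 3 genes of each direction were expressed in both, and EMC10, FNDC10, NKD1 and ARHGEF6 were expressed in one and silent in the other.

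**Figure D2:**
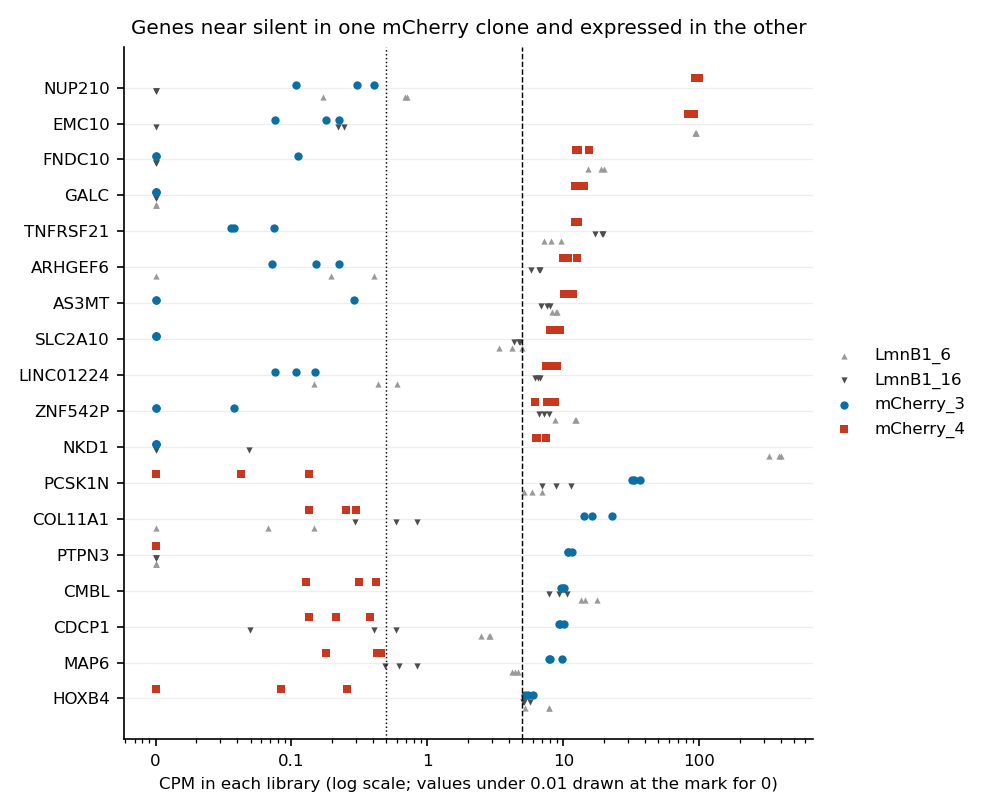
CPM of the 18 genes in each of the 12 libraries on a log axis, 3 points per clone, with the dotted line at 0.5 CPM and the dashed line at 5 CPM. The upper 11 genes were expressed in mCherry_4 and the lower 7 in mCherry_3, and the triangles of the lamin B1 clones fall on either side or between the lines.

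With a lower limit, 20 genes had 0 counts in mCherry_3 and at least 1 CPM in mCherry_4, and 7 genes the reverse. Zinc finger genes, many of which encode DNA-binding repressors and lie in clusters on chromosome 19, were 9 of the 20 and 0 of the 7, beside 2.77% of all genes tested. Over all tested genes with 0 counts in 1 clone, they were 14 of the 64 at 0 in mCherry_3 and 0 of the 32 at 0 in mCherry_4. The filter on low counts ran over all 4 clones. A gene at 0 in 1 clone was therefore tested only because another clone, which could be a lamin B1 clone, had counts. Chromosome 19 held 1058 of the 15388 tested genes. The 9 were ZNF736 (3.07, 4.09 and 2.75 CPM in mCherry_4), ZNF569 (2.39, 2.13 and 2.97), ZNF600 (2.84, 2.13 and 2.203), ZNF681 (2.53, 2.296 and 2.25), ZNF439, ZNF649, ZNF66, ZNF717 and ZNF737, and 7 of them lie on chromosome 19. Of these genes ZNF736, ZNF569 and ZNF600 were expressed in both lamin B1 clones as well, with means from 1.46 to 5.86 CPM. Among all chromosome 19 genes with such a symbol, 64 of 205 were called higher in mCherry_4 and 6 lower, with a median log2 fold change of 0.26 (0.07 on the TPM scale) and 30 higher by at least 2-fold. Such genes on other chromosomes had 43 of 221 higher and 18 lower, with a median of 0.08 (-0.07 on the TPM scale). These lists were formed after their values were seen, and paralogs of these clusters share sequence, so single members are uncertain. The chromosome 19 count was 26 with limma on TPM, 35 with length-scaled counts and 45 to 60 with 1 library left out. It was 61 with the 6 mCherry libraries alone and 52 with a mean of at least 1 CPM. The segment of chromosome 19 from 20 to 30 Mb had the highest median of any 10 Mb window with at least 20 tested genes, 0.39, with 16 of 31 genes higher and 3 lower. It holds ZNF66, ZNF681 and ZNF737 of the genes named above, so it is not separate from the zinc finger counts.

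Nonmembers of that family with 0 counts in mCherry_3 included ABCA8, a lipid transporter gene (4.74, 4.05 and 4.11 CPM in mCherry_4), SULF1, an extracellular sulfatase gene (2.44, 4.59 and 3.26), ANXA3, an annexin gene (3.47, 3.05 and 3.22), and C9orf64 (2.66, 2.34 and 2.92). Among the genes with 0 counts in mCherry_4 were BANK1, a B cell scaffold gene (2.85, 2.94 and 3.33 CPM in mCherry_3), and CLVS2, a lipid-binding protein gene (2.82, 2.58 and 3.66). Other large falls at low levels were those of NMU (3.53 ± 0.568 to 0.0141 ± 0.0245), GBGT1, HMX2, ATAT1, the tubulin acetyltransferase gene (4.02 ± 0.199 to 0.0451 ± 0.0782), NHLRC1, RAMP2 and ZIC4. In each of these 7 genes every mCherry_3 library stood above every mCherry_4 library.

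Every tested gene of the mitosis list was higher in mCherry_4. Of 50 tested, 50 were called higher and 0 lower, with log2 fold changes from 0.35 to 1.58 and a median of 0.99, beside a median of 0.01 over all genes, and 24 rose by at least 2-fold. KIF20A (ENSG00000112984.12, chromosome 5, 138178719 to 138187715), a kinesin needed for cytokinesis, was at 44.7, 53.5 and 52.99 CPM in mCherry_3 and 143, 164 and 146 in mCherry_4 (a log2 difference of 1.58 with an SE of 0.08, adjusted p = 5.27e-10 by edgeR). The checkpoint kinase gene BUB1 was at 59.4, 60.8 and 65.5 against 136, 137 and 129.9. DLGAP5, a spindle protein gene, was at 44.5, 48.5 and 51.95 against 110.1, 109.8 and 103, and HMMR, another spindle gene, at 41.7, 39.1 and 39.5 against 80.9, 86.5 and 80.8. In these 4 genes, picked by smallest adjusted p, the clones did not overlap. Nor did they in any of the 50, beside 55.7% of protein-coding genes without overlap. MKI67, the proliferation marker Ki-67, was 407 ± 16.1 in mCherry_3 and 825 ± 80.4 in mCherry_4. Averaged over the list and set against all 12 libraries, log2 levels were -0.85, -0.73 and -0.71 in mCherry_3 and 0.22, 0.24 and 0.14 in mCherry_4, and mCherry_3 had the lowest mean of the 4 clones for all 50 genes. In bulk RNA, fewer cells in mitosis and less of each transcript per cell cannot be told apart.

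Promoter letters of the mitotic list are described next. How often they occur is a property of the genes listed and does not depend on their levels in these clones. Many such genes are repressed in resting cells by the DREAM complex, which binds the cell cycle homology region (CHR), and are activated through CCAAT boxes bound by NF-Y. Windows were searched on both strands for the CHR letters TTTGAA and for CCAAT. Of 43 mitotic genes with a RefSeq window, 31 (72.1%) held the CHR letters against 9.70% of all 10322 windows, and 27 (62.8%) held both motifs against 4.20%. Shown are the mitotic genes with the smallest adjusted p whose windows hold the CHR letters, with TTTGAA and CCAAT of either strand in capitals: DLGAP5 (chr14:55191536-55191835, minus strand), HMMR (chr5:163460382-163460681, plus strand) and TOP2A, the topoisomerase gene (chr17:40417847-40418146, minus strand).
DLGAP5: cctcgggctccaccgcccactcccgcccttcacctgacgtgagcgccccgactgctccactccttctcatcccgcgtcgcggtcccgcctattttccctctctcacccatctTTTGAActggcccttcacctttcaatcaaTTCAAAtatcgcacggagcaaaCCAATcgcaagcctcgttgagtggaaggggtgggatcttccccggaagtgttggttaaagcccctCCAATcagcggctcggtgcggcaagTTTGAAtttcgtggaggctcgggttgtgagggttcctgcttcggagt
HMMR: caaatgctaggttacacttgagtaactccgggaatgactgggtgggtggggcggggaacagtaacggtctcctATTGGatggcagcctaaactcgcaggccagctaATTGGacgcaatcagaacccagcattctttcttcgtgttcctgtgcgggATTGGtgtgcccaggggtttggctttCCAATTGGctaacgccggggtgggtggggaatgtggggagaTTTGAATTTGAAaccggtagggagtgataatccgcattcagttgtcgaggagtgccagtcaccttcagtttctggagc
TOP2A: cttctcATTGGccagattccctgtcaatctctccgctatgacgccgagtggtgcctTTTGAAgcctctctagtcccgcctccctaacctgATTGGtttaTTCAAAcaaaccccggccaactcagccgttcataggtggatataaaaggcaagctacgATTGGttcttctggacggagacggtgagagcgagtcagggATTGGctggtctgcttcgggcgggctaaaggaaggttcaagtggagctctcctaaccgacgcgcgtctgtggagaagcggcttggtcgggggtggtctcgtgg
DLGAP5 had 3 CHR and 2 CCAAT matches, HMMR 2 and 5, with an overlapping pair on opposite strands, and TOP2A 2 and 4. TOP2A itself was at 271, 275 and 271 CPM in mCherry_3 and 528, 499.8 and 509 in mCherry_4. The median log2 fold change was 0.96 over the 31 mitotic genes with the CHR letters and 1.02 over the 12 without. Outside the mitotic list, 30.9% of 970 genes with CHR letters were called higher and 15.1% lower, beside 23.2% and 19.6% of all genes with a window. A match is a description of the letters and not a test of binding.

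**Figure D3:**
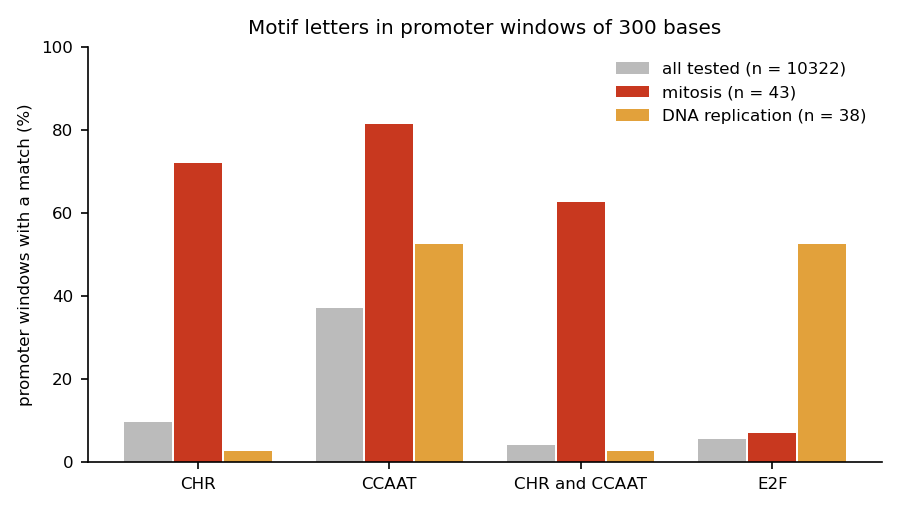
Percent of promoter windows of 300 bases with a match to each motif, for all tested protein-coding genes (n = 10322), mitosis genes (n = 43) and DNA replication genes (n = 38). CHR letters were in 72.1% of the mitosis windows and E2F letters in 52.6% of the replication windows.

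Genes of the G1/S transition and DNA replication moved the same way by less. Of 45 tested, 33 were called higher in mCherry_4 and 2 lower, with a median of 0.40 (0.19 on the TPM scale, where 18 were higher). TYMS, thymidylate synthase, was at 116, 131 and 128 CPM in mCherry_3 and 222, 232 and 226 in mCherry_4, and GINS4, a subunit of the replicative helicase, at 23.9, 27.6 and 26.2 against 51.9, 55.97 and 47.2. The ribonucleotide reductase gene RRM2 went from 308 ± 20.05 to 458 ± 8.32. The members that fell were CCNE1, the G1/S cyclin E1 (12.5 ± 0.587 to 8.65 ± 0.528 CPM, a log2 difference of -0.53 with an SE of 0.10, adjusted p = 0.000816 by edgeR), and UNG, a DNA repair glycosylase (-0.36 in log2). E2F letters, which were TTTCCCGC, TTTGGCGC, TTTCGCGC or TTTGCCGC on either strand, were in 20 of 38 windows of this list (52.6%) against 5.54% of all windows. The median log2 fold change was 0.40 over the 20 genes with these letters and 0.38 over the 18 without. CHR letters were in 1 of the 38. Of the D cyclins, CDK inhibitors and pocket proteins 7 of 15 were higher and 1 lower, with a median of 0.14. That median was -0.04 on the TPM scale, 0.09 without mCherry_3 replicate 2 and 0.09 without mCherry_4 replicate 1. CDK4, the partner of the D cyclins, was at 109, 131 and 126 against 164, 155 and 164 but was not called with limma on TPM, and CCND3, cyclin D3, at 123, 117 and 112 against 91.1, 86.1 and 97.9. CDKN1A, the p21 inhibitor, had a log2 fold change of -0.03 and was not called. Of 26 p53 targets 7 were higher, among them FAS and PLK2, and 2 were lower, and the 34.6% called lies under the share over all genes.

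Nuclear envelope genes that were called were higher in mCherry_4 with 1 exception. Of the lamins, inner nuclear membrane proteins and the complex that links nucleus and cytoskeleton, 11 of 23 were higher and 1 was lower, with a median of 0.25 (0.11 on the TPM scale). LMNB1 itself differed by 1.899-fold (a log2 difference of 0.93 with an SE of 0.07, adjusted p = 4.79e-08 by edgeR), and its libraries did not overlap. LMNA, the gene of lamins A and C, was at 723, 799 and 803 CPM in mCherry_3 and 1145, 1322 and 1214 in mCherry_4 (a log2 difference of 0.66 with an SE of 0.06, adjusted p = 4.30e-07 by edgeR). LBR, the lamin B receptor, was at 134, 131 and 129 against 203, 187 and 194, and TMPO, LMNB2 and EMD had log2 fold changes of 0.69, 0.51 and 0.41. SYNE1, a nesprin gene, was the member that fell (-0.50). Of 30 nuclear pore genes 20 were higher and 0 lower, with a median of 0.29 (0.13 on the TPM scale). Besides NUP210 the largest was the pore membrane gene NDC1 (73.4, 69.2 and 72.4 to 132, 118 and 118), and the scaffold gene NUP205 went from 117 ± 4.33 to 159 ± 0.397. Among heterochromatin, DNA methylation and Polycomb genes 18 of 44 were higher and 7 lower, with a median of 0.12 (-0.04 on the TPM scale and 0.07 without mCherry_4 replicate 1). Those higher included CBX5 and CBX3, which encode heterochromatin protein 1 forms, at 257 ± 8.79 to 388 ± 21.3 and 165 ± 6.27 to 227 ± 6.899 CPM, and the maintenance methyltransferase DNMT1. Those lower included the Polycomb gene CBX7 (13.4, 14.9 and 14.4 to 8.12, 5.68 and 7.75) and the methyltransferase DNMT3A (-0.78 in log2).

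**Figure D4:**
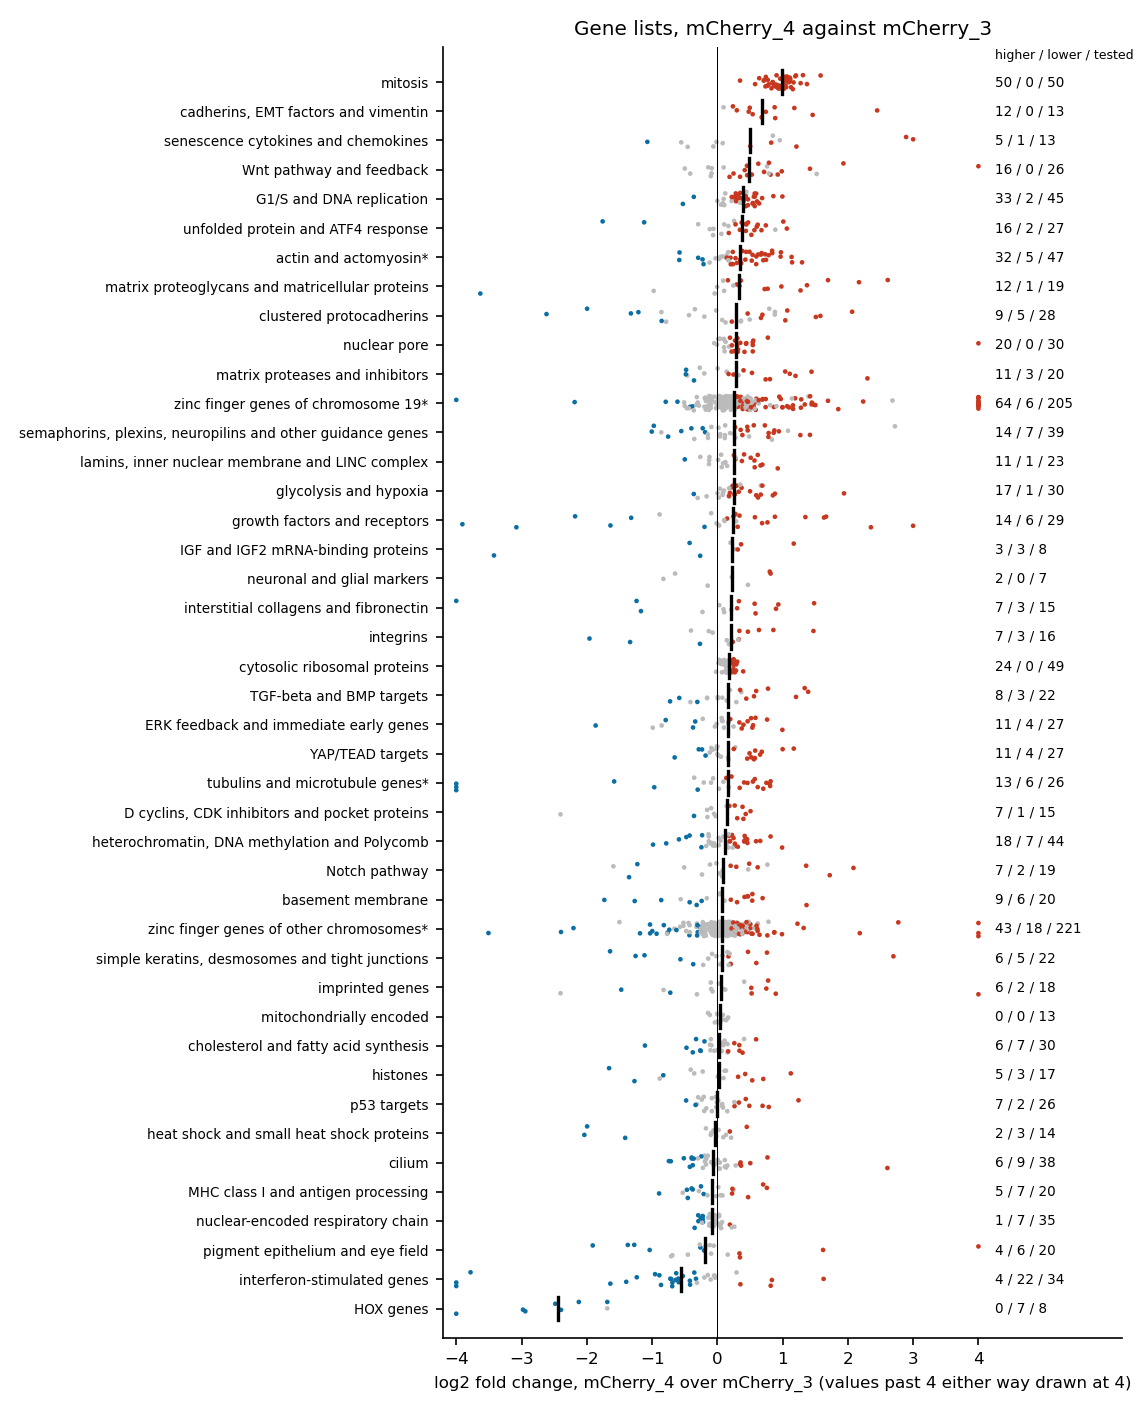
Log2 fold change of mCherry_4 over mCherry_3 for each tested member of the lists with at least 5 tested members, with red and blue points for members called higher and lower, grey for members not called, and a black bar at the median. Values past 4 are drawn at 4, an asterisk marks lists formed after values were seen, and the lists run from mitosis (median 0.99) at the top to HOX (-2.44) at the bottom.

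Most actin genes were higher in mCherry_4. On a list formed after values were seen, 32 of 47 actin and actomyosin genes were higher and 5 lower, with a median of 0.35 (0.20 on the TPM scale). ACTG1, gamma actin, was at 4266, 3500.5 and 3629.9 CPM in mCherry_3 and 8269.6, 8762 and 8171 in mCherry_4 (a log2 difference of 1.15 with an SE of 0.06, adjusted p = 1.58e-09 by edgeR), and ACTB, beta actin, at 6631, 6052 and 6378 against 10978, 11688 and 11421. Neither gene overlapped between the clones, and both have many processed pseudogenes with which reads can be shared. The filament-binding tropomyosin gene TPM4 was at 764, 745 and 731 against 1629.9, 1723 and 1574. The crosslinker FLNA rose from 2979.8 ± 96.9 to 5832 ± 444, the nonmuscle myosin MYH9 from 2220.4 ± 82.6 to 3827 ± 535, and SRF, the transcription factor of many actin genes, from 57.05 ± 2.11 to 95.6 ± 6.73. CNN1 and FLNC, of the muscle type, fell (log2 -0.58 and -0.58). Of 26 tubulin and microtubule genes, also chosen after values were seen, 13 were higher and 6 lower, among the latter ATAT1, MAP6 and TUBB4A. Of 27 YAP/TEAD targets 11 were higher and 4 lower. IGFBP3 was at 143, 125 and 124 against 274, 348 and 260.0 CPM and NT5E at 571, 546 and 563 against 854, 828 and 822, while the defining targets CCN2 (-0.01 in log2) and ANKRD1 (0.00) were not called and CCN1 was lower (-0.23).

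Cadherin and mesenchymal genes were mostly higher in mCherry_4, while junction genes moved both ways. Of 13 tested cadherin, epithelial-mesenchymal transition factor and vimentin genes, 12 were higher and 0 lower, with a median of 0.68. CDH6, cadherin 6, was at 8.03, 7.27 and 6.18 CPM in mCherry_3 and 41.1, 42.2 and 34.1 in mCherry_4 (a log2 difference of 2.45 with an SE of 0.13, adjusted p = 1.07e-09 by edgeR). PRRX1, a mesenchymal homeobox factor, was at 11.8, 12.3 and 12.6 against 34.3, 33.2 and 33.6, and VIM, vimentin, at 3505, 3402 and 3444 against 6259.7, 6744 and 6138. In all 3 genes the clones were apart. Of 22 keratin, desmosome and tight junction genes 6 were higher and 5 lower, with a median of 0.07 (-0.08 on the TPM scale). It was 0.145 without mCherry_3 replicate 1, and it fell by over 1.5 times, to 0.0389 at the lowest, without mCherry_3 replicate 3 or mCherry_4 replicate 1. The tight junction genes CGN (15.9 ± 1.74 to 5.09 ± 0.966) and F11R (40.9, 37.3 and 33.6 to 18.3, 12.8 and 15.8) fell, and so did KRT8 (593 ± 17.6 to 401 ± 19.4). KRT81, a hair keratin gene, rose from 4.34, 6.41 and 6.73 to 35.2, 40.2 and 38.4, and its mean in LmnB1_6 was 1713. Of 16 integrin genes 7 were higher and 3 lower. ITGA5, the fibronectin receptor subunit, was at 711, 682 and 706 against 1238, 1306 and 1263 CPM, whereas ITGA4 (68.1 ± 4.16 to 26.97 ± 1.27) and ITGB4, of the laminin receptor (14.2 ± 1.38 to 3.65 ± 0.400), were lower.

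Extracellular matrix genes moved in both directions. FN1, fibronectin, was at 3040.2, 2912 and 2976 CPM in mCherry_3 and 5753, 5966 and 4927 in mCherry_4 (a log2 difference of 0.90 with an SE of 0.07, adjusted p = 5.44e-08 by edgeR), and COL6A3, a collagen VI chain, at 22.1, 24.7 and 25.3 against 67.4, 68.4 and 65.8. Another collagen VI chain gene, COL6A1, fell (13.8 ± 1.97 to 5.84 ± 0.7004 CPM). In all, 7 of 15 interstitial collagen and fibronectin genes were higher and 3 lower, with a median of 0.21. It was -0.04 on the TPM scale, 0.09 with length-scaled counts and 0.13 without mCherry_4 replicate 1. Proteoglycan and matricellular genes were mostly higher, 12 of 19 with 1 lower and a median of 0.34 (0.19 on the TPM scale). VCAN, versican, was at 214, 174 and 186 against 671, 641 and 546, SDC1, syndecan 1, at 146, 155 and 151 against 350.2, 375 and 369, and TNC, tenascin C, at 47.5 ± 5.79 against 123 ± 2.32. FMOD, fibromodulin, was the member that fell (1.12 ± 0.411 to 0.0839 ± 0.0835 CPM). Basement membrane genes split, with 9 of 20 higher and 6 lower. NID2, nidogen 2, was at 62.4, 68.8 and 67.4 against 167, 163 and 182, and COL4A1 rose, while the collagen IV chains COL4A4 (24.7, 19.5 and 20.4 to 8.21, 5.93 and 5.34) and COL4A5 (68.1 ± 6.85 to 37.5 ± 2.92) fell. Matrix proteases and inhibitors had 11 of 20 higher and 3 lower, with ADAM19, ADAM12, CTSL and SERPINE2 among the higher.

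Interferon-stimulated genes went the other way. Of 34 tested, 22 were lower and 4 higher in mCherry_4, with a median of -0.56, and mCherry_3 had the highest mean of the 4 clones for 23. BST2, the antiviral protein tetherin, was at 2.05, 2.58 and 2.22 CPM in mCherry_3 and 0.0903, 0.0417 and 0.127 in mCherry_4 (a log2 difference of -4.65 with an SE of 0.43, adjusted p = 4.47e-07 by edgeR). PARP14, an ADP-ribosyltransferase gene, was at 64.1, 62.9 and 60.4 against 36.1, 29.8 and 35.3, and IFI6 at 30.2, 36.1 and 36.7 against 12.1, 11.8 and 15.2. The transducer STAT2 had a log2 fold change of -0.53, IRF7 -0.72 and IRF9 -0.69, and OAS2 was at 1.74 ± 0.3303 against 0.0278 ± 0.0482. SAMD9, which was higher, went from 17.04, 13.8 and 14.9 to 49.6, 45.4 and 46.6, and TRIM22, IFI44L and RIGI were higher too. Of 20 genes of MHC class I and antigen processing 7 were lower and 5 higher. HLA-B was at 255, 286 and 277 against 149.6, 139.9 and 151 CPM and B2M, the light chain, had a log2 fold change of -0.25, while ERAP2 (0.76) and PSMB9 (0.70) were higher. HLA genes share sequence and are uncertain. Of 13 secreted cytokine genes linked to senescence 5 were higher, with CSF1 at 31.8, 31.9 and 31.97 against 54.3, 52.9 and 62.2 and LIF at 60.5, 81.1 and 82.96 against 108, 106 and 104, and 1, IL1B, was lower (11.9, 11.9 and 10.95 to 5.51, 3.17 and 7.84).

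Most tested HOX genes were lower in mCherry_4. These homeobox factors record position along the body axis. Of 39 listed, 8 passed the filter on low counts, all in the HOXB cluster, and 7 were lower and 0 higher, with a median of -2.44. The filter ran over all 4 clones, 1 of which, LmnB1_6, had higher means than both mCherry clones for every tested HOXB gene but HOXB7. HOXB2 (0.194 ± 0.147 against 0.05699 ± 0.02298) and HOXB8 (0.502 ± 0.232 against 0.0839 ± 0.0835) were low in both mCherry clones. With the 6 mCherry libraries alone 6 were called lower, and 5 with a mean of at least 1 CPM. HOXB6 was at 5.402, 5.41 and 5.81 CPM in mCherry_3 and 0.542, 0.751 and 0.847 in mCherry_4, HOXB9 at 9.05, 6.81 and 7.29 against 1.17, 1.29 and 1.91, and HOXB3 at 5.55, 5.45 and 6.48 against 1.62, 1.63 and 2.16. None of these overlapped between the clones. HOXB2, at a log2 fold change of -1.69, was not called. Neighbours in one cluster are not independent genes. In LmnB1_6 the means of HOXB6, HOXB9 and HOXB3 were 39.96, 68.9 and 103, and in LmnB1_16 they were 0.542, 0.196 and 2.78.

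**Figure D5:**
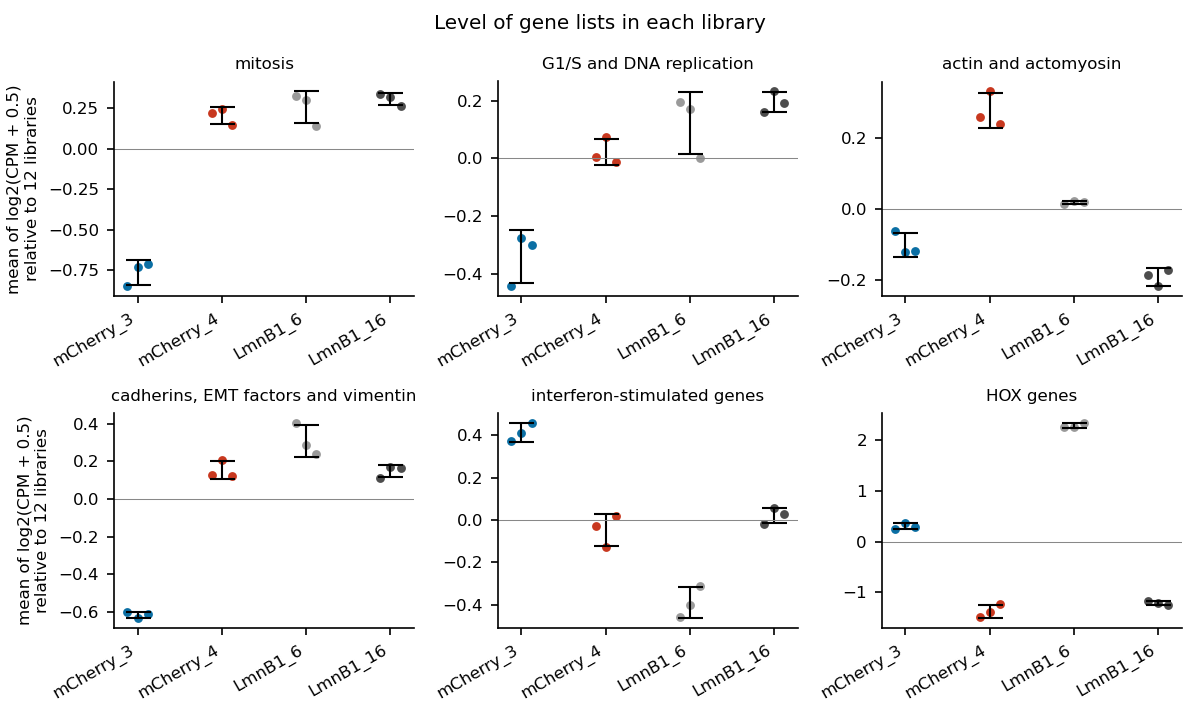
Mean over list members of log2(CPM + 0.5) relative to the mean of all 12 libraries, for 6 lists in the 3 libraries of each clone, with bars for the mean and SD of 3 libraries. In the mitosis panel mCherry_3 lies at -0.85 to -0.71 and the other 3 clones above 0, and the axes differ between panels.

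Signalling genes differed gene by gene. In the Wnt list 16 of 26 were higher in mCherry_4 and 0 lower, with a median of 0.49 (0.14 on the TPM scale). SFRP1, a secreted Wnt antagonist, was at 336, 269.7 and 269 CPM in mCherry_3 and 1126, 1105 and 1108 in mCherry_4 (a log2 difference of 1.93 with an SE of 0.08, adjusted p = 8.99e-11 by edgeR). The receptor gene FZD8 was at 5.93, 6.92 and 7.55 against 18.2, 18.7 and 17.7, and DKK3 at 287, 270.1 and 272 against 434, 419 and 429. Ligands and antagonists rose beside each other, with WNT5A at 0.72 and DKK1 at 0.93 in log2. Of 22 TGF-beta and BMP targets 8 were higher, among them INHBA, TGFBI and PMEPA1, and 3 were lower (50% called). The median was 0.17, and it was 0.06 on the TPM scale and 0.32 without mCherry_3 replicate 1. INHBA, an activin chain, was at 81.1, 84.8 and 84.8 against 221, 229 and 208, TGFBI at 365, 334 and 343 against 584, 642 and 559, and PMEPA1 at 7.95, 7.02 and 6.62 against 21.5, 15.7 and 17.4. Of 29 growth factors and receptors 14 were higher and 6 lower, with a median of 0.25 (-0.01 on the TPM scale and 0.12 with length-scaled counts). The receptor ERBB3 fell from 23.1, 20.5 and 19.5 to 2.57, 2.34 and 2.54 (a log2 difference of -3.08 with an SE of 0.18, adjusted p = 4.04e-09 by edgeR). FGFR4 and PDGFB fell too. The ligands PDGFC (38.1, 35.8 and 41.7 to 119, 129.8 and 110.4), TGFA (6.39 ± 0.709 to 20.3 ± 1.84) and VEGFC (22.5 ± 1.57 to 57.4 ± 2.89) rose. The ligand EREG (0.0370 ± 0.0641 to 0.333 ± 0.163) was near 0 in both mCherry clones. Since the filter ran over all 4 clones, its difference is uncertain. Among immediate early genes and ERK feedback 11 of 27 were higher, such as FOSL1 (275, 266 and 269 to 476, 449 and 449.8) and MYC (53.5, 58.8 and 53.5 to 83.3, 73.4 and 83.8), and 4 lower, with EGR1 at 28.5, 51.4 and 54.6 against 10.8, 12.7 and 13.4.

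Both chains of one amino acid transporter were lower in mCherry_4, while most genes listed with them were higher. SLC7A5, the light chain of the LAT1 transporter of large neutral amino acids, was at 1607, 1425 and 1471 CPM in mCherry_3 and 422, 503 and 407 in mCherry_4 (a log2 difference of -1.76 with an SE of 0.10, adjusted p = 1.31e-09 by edgeR). SLC3A2, its heavy chain, was at 351, 375 and 351 against 166, 166 and 163. These were the members that fell among 27 genes of the unfolded protein and ATF4 responses, of which 16 were higher, with a median of 0.37. SLC7A11, the cystine transporter that also pairs with SLC3A2, rose from 19.8, 18.4 and 20.2 to 38.6, 40.7 and 42.8, PSAT1, of serine synthesis, from 33.3, 36.2 and 37.5 to 70.7, 71.2 and 73.9, and ATF4 itself from 161 ± 11.3 to 244 ± 26.7. The means of SLC7A5 in LmnB1_6 and LmnB1_16 were 403 and 489. Of 30 glycolysis and hypoxia genes 17 were higher and 1 lower, with LDHA at 861, 836 and 866 against 1563, 1446 and 1612 and ENO1 at 1741, 2002 and 1945 against 2764, 2947 and 2886. Of 35 nuclear-encoded respiratory chain genes 1 was higher and 7 lower (NDUFV1 131 ± 2.898 to 103 ± 2.09), and of 13 mitochondrially encoded genes 0 were called. Of 49 ribosomal protein genes 24 were higher and 0 lower, all by under 1.5-fold, with a median of 0.17 (0.07 on the TPM scale), and their processed pseudogenes make single members uncertain. GPRC5A, an orphan receptor gene, fell from 549 ± 49.4 to 253 ± 28.01 and CAV1, caveolin 1, rose from 260.4 ± 8.04 to 546 ± 33.03.

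Factors of the eye field and pigment epithelium, which MITF, OTX2, PAX6 and SIX3 encode, were expressed in every library, with SIX3 at 82.9, 80.97 and 80.96 CPM in mCherry_3 and 76.6, 76.3 and 82.7 in mCherry_4. MITF was lower in mCherry_4 (58.6 ± 5.83 to 48.97 ± 2.03), and the other 3 were not called. RPE65, TYR, DCT, RAX and TTR, markers of differentiated or early pigment cells, had 0 counts in all 6. Of 20 tested genes of this list 4 were higher and 6 lower, with PMEL at 4.64, 4.08 and 4.88 against 1.13, 1.17 and 1.31 (not called with length-scaled counts). Most markers of other tissues were at 0 or under 1 CPM. Of 10 leukocyte markers 4 had 0 counts in all 6 libraries, CD3E, LYZ and TYROBP among them, and 4 stayed under 1 CPM, with PTPRC, the pan-leukocyte CD45, at no more than 0.254. Of 10 endothelial markers 2, EMCN and ERG, had 0 counts and 5 stayed under 1 CPM, with VWF at no more than 0.609 and CDH5 at no more than 0.185. Of 12 muscle markers 7 had 0 counts, MYOD1 and MYOG among them, and 3 stayed under 1 CPM. Of 14 neuronal and glial markers 5 had 0 counts, STMN2, RBFOX3 and NEFL among them, and 5 stayed under 1 CPM, with SNAP25 at no more than 0.857 and GFAP at no more than 0.896. Other members of those lists were expressed. Those that differed included TNNT1 (125, 150.3 and 138 to 55.4, 55.5 and 55.1), TIE1 (13.8, 15.6 and 15.7 to 3.79, 3.71 and 4.19), CSF1R (1.03, 1.54 and 1.55 to 5.37, 4.88 and 6.35) and TUBB3 (152 ± 4.05 to 265 ± 20.5). Summed over the tested members, the levels ran from 199.9 to 207.9 CPM in mCherry_3 and from 308.4 to 343.5 in mCherry_4 for the neuronal and glial list, and from 78.1 to 88.6 and from 66.1 to 77.1 for the leukocyte list. The sums were 15.6 to 18.7 and 5.69 to 7.20 CPM for the endothelial list and 127 to 153 and 55.8 to 56.5 for the muscle list. Each sum was mostly 1 gene, which was TUBB3, CD68 (77.1 to 87.0 and 60.7 to 70.8), TIE1 and TNNT1 in turn. The sums therefore do not describe the lists. Of 7 tested neuronal and glial genes 2 were higher and 0 lower, with a median of 0.22 (-0.07 on the TPM scale). Of 2 tested leukocyte genes 1 was higher and 1 lower. The part of these markers in the other results was not tested.

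No chromosome as a whole stood far from 0. Over the autosomes and X, median log2 fold changes ran from -0.05 on chromosome 14 to 0.07 on chromosome 13. The share called higher ran from 14.8% on chromosome 22 to 25.7% on chromosome 18.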

How the data were processed

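Messenger RNA was sequenced from 12 libraries, of which the 6 from mCherry_3 and mCherry_4 carry this comparison. The values the authors deposited are estimated counts per gene and TPM. The submitters' processing notes name STAR, Salmon, DESeq2 and GRCh38 without giving their roles. No source used here gives the annotation release, strand or read length. Deposited effective lengths, in bases, were used only for one alternative. Of 60708 genes per library, 58396 matched GENCODE release 29 without version.

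Estimated counts were rounded to whole numbers, filtered with filterByExpr (minimum count 10, minimum total 15), scaled by TMM and tested by the quasi-likelihood functions glmQLFit and glmQLFTest of edgeR 4.0.16 (R 4.3.3), with the 4 clones as groups sharing 1 estimate of the spread. A call is an adjusted p (Benjamini-Hochberg) below 0.05. Each SE was obtained by dividing the log2 fold change by the root of F. All p-values reflect library-to-library spread alone. On simulated counts for these clones, 64.2% of 67 genes changed 1.5-fold, 80.6% of 67 changed 2-fold and 95.5% of 66 changed 4-fold were recovered among 15388, with 9 false calls. Only those genes changed in the simulation, a far smaller share than was called in the data. Its spread followed the trend over genes and not that of each gene, so recovery in the data may differ. Bounds on folds use 3 counts over the libraries of a clone. Bounds and 95% intervals cover counting error only. Levels are CPM, which are not per length, so the ranks by CPM in the naming rule and the quartiles also depend on transcript length.

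The rule for named genes took LMNB1, the top 12 rises and top 12 falls among called coding genes (mean of at least 1 CPM), the 8 most abundant changed at least 2-fold, from each list up to 4 called members by adjusted p (in a list with no call, its 2 most abundant), and all coding genes of the silent and expressed rule. Other genes were chosen after their values were seen. The comparison and the 42 lists were chosen with earlier results of these data known, and 4 lists were added after values were seen. List medians on TPM and list counts under the alternatives were chosen after seeing the data. Alternatives were RLE size factors, DESeq2 1.42.0, no filter, a mean of at least 1 CPM, the 6 libraries alone, length-scaled counts, limma 3.58.1 on log2(TPM + 0.5), a replicate block and each library left out.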

Additional observations from a re-analysis of the deposited data

How the results depend on the processing

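No gene called between the mCherry clones had an opposite call under any alternative, and all 50 mitosis genes were called higher under each of them. On limma with TPM, whose median over all genes was -0.11, 1411 genes were higher and 676 changed at least 2-fold, 18 replication genes and 26 chromosome 19 zinc finger genes were higher (35 with length-scaled counts). Medians of 13 lists turned negative there, at -0.0352 for the D cyclins, -0.0389 for heterochromatin, -0.0413 for interstitial collagens, -0.0799 for keratins and junctions, -0.0103 for growth factors, -0.0948 for the Notch pathway, -0.0873 for imprinted genes, -0.0730 for neuronal markers, -0.0673 for zinc finger genes of other chromosomes, -0.0926 for mitochondrially encoded genes, -0.0882 for histones, -0.141 for p53 targets and -0.117 for cholesterol genes. The last 2 lie below the shift of all genes and the other 11 above it. With a mean of at least 1 CPM, 702 genes changed at least 2-fold, since fewer low genes were tested. The 18 silent and expressed genes became 9 under 0.2 CPM, 9 from 10 CPM and 10 on TPM. Length-scaled counts called 4165 genes. The cause of these changes was not tested.

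With 1 library left out, 4701 to 5090 genes were called, 2569 to 2729 higher and 2106 to 2361 lower, 950 to 1077 at 2-fold or more, and 18 to 19 were silent and expressed. The mitosis list kept 50 to 50 higher, replication 31 to 33, actin 30 to 32 and chromosome 19 zinc fingers 45 to 60, while 19 to 22 interferon genes and 7 to 7 HOX genes were lower. The largest chromosome median was 0.0603 to 0.0791. Of the named genes, 10 lost their call on TPM (CDKN2C, CDK4, IGF2BP1, POGLUT3, ELOVL6, SQLE, UQCRC1, RPL4, EFEMP1 and KDR), 6 with length-scaled counts (IGF2BP1, POGLUT3, ACSS2, UQCRC1, PMEL and KDR) and 1, UQCRC1, without mCherry_4 replicate 3.

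With a replicate block 5855 genes were called against 5752. Across genes, deviations from the clone mean correlated at 0.048, 0.012 and 0.003 between same-numbered libraries of the mCherry clones. Between libraries with different numbers they correlated at -0.042 to 0.037. These values over all genes cannot exclude a batch that moved fewer genes, and whether same-numbered libraries shared a batch was not tested. Depth limits the silent genes, where a count of 0 allows up to 3 counts over 3 libraries.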

Other observations

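The shares called in the groups below are to be read beside 37.4% of all genes and 42.5% of protein-coding genes. Of 39 semaphorin, plexin and other guidance genes 14 were higher and 7 lower in mCherry_4, with a median log2 fold change of 0.26 (0.20 with the gene at 0 counts set to its bound, 0.16 without mCherry_4 replicate 3 and 0.05 on the TPM scale). NRP1, a coreceptor of semaphorins and VEGF, was at 129, 132 and 137 CPM in mCherry_3 and 368, 355 and 341 in mCherry_4 (a log2 difference of 1.42 with an SE of 0.07, adjusted p = 3.23e-10 by edgeR), while SEMA3B fell from 86.5 ± 3.89 to 43.1 ± 4.45 and SEMA6B from 112 ± 6.43 to 57.2 ± 7.61. Of 28 clustered protocadherin genes 9 were higher and 5 lower, with PCDHGB5 at 19.6, 19.5 and 19.8 against 60.8, 58.3 and 56.5 and PCDHGA4 at 8.86, 8.17 and 8.21 against 3.07, 1.13 and 2.16. Genes of these clusters share their last exons, so single members are uncertain. In the cilium list, of which 39.5% was called, 9 of 38 were lower, among them the transport gene IFT43 (13.9 ± 0.699 to 8.51 ± 0.935) and BBS9 (7.897 ± 1.07 to 4.71 ± 0.136), and 6 were higher. The Hedgehog transducer SMO rose most, from 1.94, 2.29 and 2.44 to 14.1, 12.5 and 14.2 (a log2 difference of 2.61 with an SE of 0.12, adjusted p = 3.56e-10 by edgeR), and the Hedgehog receptor PTCH1 had a log2 fold change of 0.77.

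Of 14 heat shock genes 3 were lower and 2 higher (35.7% called). HSPB8, a small heat shock protein gene, was at 45.9, 43.5 and 42.3 CPM in mCherry_3 and 16.2, 16.6 and 16.6 in mCherry_4, HSPA2 at 14.7, 14.6 and 14.3 against 3.61, 3.13 and 4.19, and CRYAB at 3.78 ± 1.12 against 0.913 ± 0.257, while the mitochondrial chaperonin HSPD1 was higher (465 ± 5.55 to 635 ± 18.7). Of 19 Notch pathway genes 7 were higher, with the ligand JAG1 at 16.3, 14.1 and 14.8 against 39.4, 35.8 and 40.8, and 2 were lower. Of 30 cholesterol and fatty acid genes 6 were higher and 7 lower (43.3% called), with the sterol reductase gene TM7SF2 among the lower (42.9 ± 1.23 to 19.9 ± 1.45). Of 18 imprinted genes, of which 44.4% were called, 6 were higher, such as GRB10 (42.6 ± 2.404 to 79.3 ± 4.91) and MEST (93.3 ± 2.49 to 157 ± 10.1), and 2 were lower, with NAP1L5 at 24.2 ± 1.07 against 14.7 ± 1.82. ZNF331, an imprinted zinc finger gene on chromosome 19, was at 0.03804, 0 and 0 against 0.451, 0.543 and 0.551. Of 5 IGF binding protein genes IGFBP3 was higher and IGFBP5 (2.93, 1.79 and 1.41 against 0.0451, 0.209 and 0.297) and IGFBP6 were lower. The IGF2 mRNA-binding protein genes of the same list split, with IGF2BP1 and IGF2BP3 higher and IGF2BP2 lower, and IGF2BP1 was not called on TPM or with length-scaled counts. Of 17 histone genes 5 were higher and 3 lower, H2AZ1 rising from 336 ± 49.6 to 547 ± 7.59, and histone genes share sequence and are uncertain.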
